A study of Mus musculus with 12 samples.

Results

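The abundant long noncoding RNAs of sorted hippocampal astrocytes were taken as every row of the deposited table with the biotype lncRNA, an exonic length of at least 300 bases, a mean FPKM of at least 10 over all 12 libraries and a position outside chromosomes X and Y. FPKM is fragments per kilobase of gene length per 1000000 assigned fragments, a level that can be compared between genes of different length. This rule gave 153 members of 56941 rows, among 11608 rows of lncRNA biotype, of which 2257 had a mean FPKM of at least 1. The members were selected on the measured levels of all 12 libraries, and Gt(ROSA)26Sor, the noncoding RNA of the Rosa26 locus, was singled out with its difference between genotypes known, so that difference is given as a description only. The members just inside the limit were Gm27202 at 10.2 and Gm38348 at 10.1 FPKM, and the rows just outside were Gm26779 and 4921501I09Rik, both at 9.89 FPKM. A further 5 rows that met the other limits lay on X or Y. Reaching the limit did not require the same group for each member: 140 had a mean of at least 10 FPKM in Ctrl, 145 in cKO and 132 in both. All 153 members passed the lower limit of FPKM 1 set for testing.

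Cells were sorted with an antibody to ACSA-2, an astrocyte surface antigen, from the hippocampus of adult male mice. The Ctrl group was Tnfrsf1b fl/fl, that is, both copies of the gene for the TNF receptor TNFR2 flanked by loxP sites (libraries of A1, A2 and A8), and the cKO group was Gfap creERT2:Tnfrsf1b fl/fl, which carries the same floxed gene and a tamoxifen-inducible Cre driven by the Gfap promoter (A4, A9 and A10). Gfap is also active in neural stem cells and varies among astrocytes, which limits the model. Both groups thus share the floxed allele and differ in the Cre transgene. The labels give no tamoxifen schedule, no exact age and no allele at Rosa26, and they define neither the A numbers nor the S1 and S2 library made for each. The mean of S1 and S2 stood for an A number as 1 unit, so n = 3 units per genotype, and nothing in the labels says whether the units are separate animals. The p-values therefore measure the spread between these units.

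Long noncoding RNAs are transcripts without a recognised protein product. Some stay in the nucleus and build bodies such as speckles and paraspeckles, some are carriers whose introns or exons are processed to microRNAs or small nucleolar RNAs, some act in the cytoplasm, and a large class is transcribed from the opposite strand of a protein-coding gene. The Rosa26 RNA is known as the broadly expressed transcript of a locus that tolerates insertions, and many Cre reporters and transgenes have been placed there.

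Recovered depth was 17311883 to 35323322 reads per library, with 82.8% to 86.3% of values above 0 falling within 0.05 of a whole read. S1 and S2 of one A number differed with a median chi-square of 1.12 to 1.22 per gene, against 7.54 to 22.0 between different A numbers of one genotype. Over the members alone the medians were 1.66 to 2.39 and 4.84 to 22.4. Sampling noise of independent single reads gives 0.455. The mates of a pair were counted here as separate reads, so sampling of whole pairs gives a higher value than 0.455. Tnfrsf1b was listed at 0 in 9 of 12 libraries and reached at most 0.163 FPKM, in A4, so the targeted gene does not check the labels here. The 12 astrocyte markers (among them Slc1a2, Aqp4 and Gja1) averaged 7.75 ± 0.126 (SD, n = 3) among Ctrl units and 7.95 ± 0.0597 among cKO units (log2(FPKM + 1) scale). Of these markers 11 were higher in cKO, and the units of the list did not overlap (exact permutation test, p = 0.1). The 10 oligodendrocyte markers, from Mbp and Mog to Opalin, averaged 6.38 ± 0.622 in Ctrl and 4.60 ± 0.668 in cKO, and every one of the 10 was lower in cKO (exact permutation test, p = 0.1, the smallest that 3 against 3 units allow). By unit this list stood at 6.66, 6.80 and 5.66 in A1, A2 and A8, and at 4.03, 4.43 and 5.33 in A4, A9 and A10. The lists for oligodendrocyte precursors (3.78 in Ctrl, 3.12 in cKO) and microglia (2.13 in Ctrl, 2.78 in cKO) did not overlap between genotypes either (exact permutation test, p = 0.1 each). Those for neurons, endothelial and mural cells, and ependymal cells overlapped. Fewer cells of a type in a sort and less of its RNA per cell cannot be told apart in bulk samples.

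The microRNAs carried by the members show what these RNAs give rise to. In the deposited rows, 9 microRNA genes lay within 6 members, and 8 of the 9 were matched by symbol to RefSeq mature sequences on GRCm38.p6; Mir124a-2, inside Mir124-2hg, was not matched. Mature sequences are printed 5′ to 3′ with the seed (bases 2 to 8), which pairs with target messengers, in capitals. Gm3764, which holds Mir9-1, and C130071C03Rik, which holds Mir9-2, lie on different chromosomes and carry the same brain-enriched microRNA:
miR-9-5p: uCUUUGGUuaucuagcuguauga
miR-9-3p: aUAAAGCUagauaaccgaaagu
Mir99ahg carries a cluster of Mir99a, Mirlet7c-1 and Mir125b-2, whose main arms are:
miR-99a-5p: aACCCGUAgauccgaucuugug
let-7c-5p: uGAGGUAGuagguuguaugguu
miR-125b-5p: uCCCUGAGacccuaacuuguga
Snhg10 and Gm6145 carry microRNAs that are less well known:
miR-3069-3p: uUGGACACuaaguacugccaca
miR-6390: gAAUUGAUcaggauguaacca
Apart from the shared miR-9 arms, all seeds differed: the 13 different mature sequences of these hosts had 13 different seeds. The libraries were made from cDNA of long RNA, so the values below are levels of the host rows and say nothing of the mature microRNAs. Where a small RNA gene lies in an exon of its host, the host row can also hold its reads.

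Malat1 stood far above all other members. Malat1, the RNA of nuclear speckles, had a mean of 4555 FPKM and took 2.39% to 3.68% of all reads of a library, while the other members together took 0.593% to 0.838%. With Malat1, the members took 3.01% to 4.49% of all reads and 68.3% to 76.2% of the reads assigned to lncRNA rows. The next most abundant were Gm13872 at 223 FPKM, an antisense transcript of the glutamate transporter gene Slc1a2, Gm37401 at 86.2, Gm3764 at 76.9, Gm57354 at 75.7, 1700010K23Rik at 71.8, Gm42413 at 71.3, Gt(ROSA)26Sor at 67.2, B930095G15Rik at 64.6 and Gm10308 at 61.6 FPKM. In all, 11 members reached 50 FPKM and 64 reached 20 FPKM, against a median of 16.5 FPKM over the 153. Most are RNAs without a functional name: 111 have a Gm symbol and 23 a Rik symbol. The symbol Gm16499 stands on 2 member rows, which were kept apart by gene identifier.

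**Figure D1:**
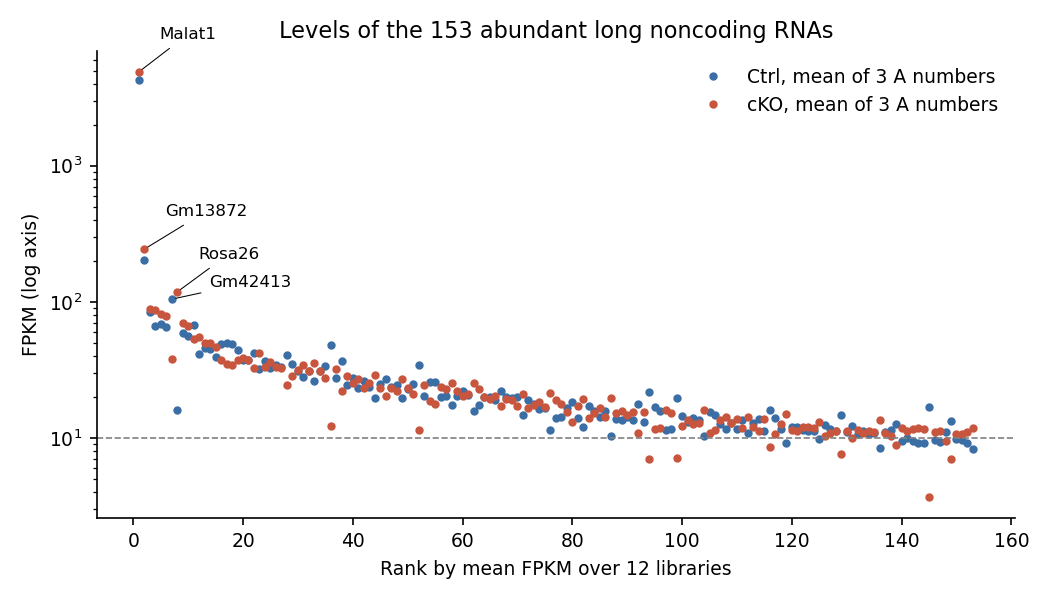
Levels of the 153 members in FPKM (log axis) against their rank by mean level over 12 libraries. Each member has a blue point for the mean of the 3 Ctrl A numbers and a red point for the mean of the 3 cKO A numbers; the dashed line is the limit of 10 FPKM. Malat1 stands alone at 4555 FPKM, and the red and blue points lie close together except for a few members such as Rosa26.

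Gt(ROSA)26Sor had the largest difference between genotypes of the 153. In Ctrl it measured 8.999 and 8.28 FPKM in S1 and S2 of A1, 10.5 and 11.5 in A2, and 27.5 and 29.8 in A8. In cKO it measured 178 and 182 FPKM in A4, 79.8 and 83.2 in A9, and 90.5 and 96.9 in A10. The libraries of the 2 genotypes did not overlap, the lowest cKO library being 2.68 times the highest Ctrl library, and within each genotype 1 unit stood above the other two (A8 and A4). The group means were 16.1 ± 10.9 FPKM in Ctrl and 118 ± 53.7 in cKO (SD, n = 3), a ratio of 7.36 and a difference of 2.90 ± 0.47 (SE) on the log2(FPKM + 1) scale. The choice of this RNA used the contrast, so no test supports it; its adjusted p in limma over all genes, for the record, was 0.319, and leaving out 1 A number at a time, rescaling, another pseudocount, or S1 or S2 alone gave differences between 2.55 and 3.38. With the mean oligodendrocyte marker level as a covariate the difference was 1.27 (unadjusted p = 0.0861, limma). That covariate did not overlap between the genotypes, so over 6 units it is close to the genotype itself.

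The locus lies on chromosome 6, start 113043843, end 113054294, on the minus strand in the deposited coordinates (the build of the table was not settled), with 3075 exonic bases. Its 5′ end faces that of Setd5, a SET-domain gene on the opposite strand, at 32 bases, and its 3′ part shares 269 exonic bases (8.75% of its length) with Thumpd3, also on the opposite strand. Setd5 measured 10.6, 8.03 and 14.8 FPKM in A1, A2 and A8 and 9.21, 9.85 and 9.30 in A4, A9 and A10, so its groups overlapped. Thumpd3 measured 3.50, 2.83 and 2.78 FPKM in Ctrl and 7.51, 3.10 and 3.45 in cKO, also overlapping. The highest Thumpd3 value fell in A4, the unit with the highest Rosa26 value. A small nuclear RNA gene beside the locus, Gm22591, was between 0 and 6.11 FPKM with no separation of the groups. The kit does not mark strand, so reads in the shared bases of Rosa26 and Thumpd3 cannot be assigned to one of them.

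**Figure D2:**
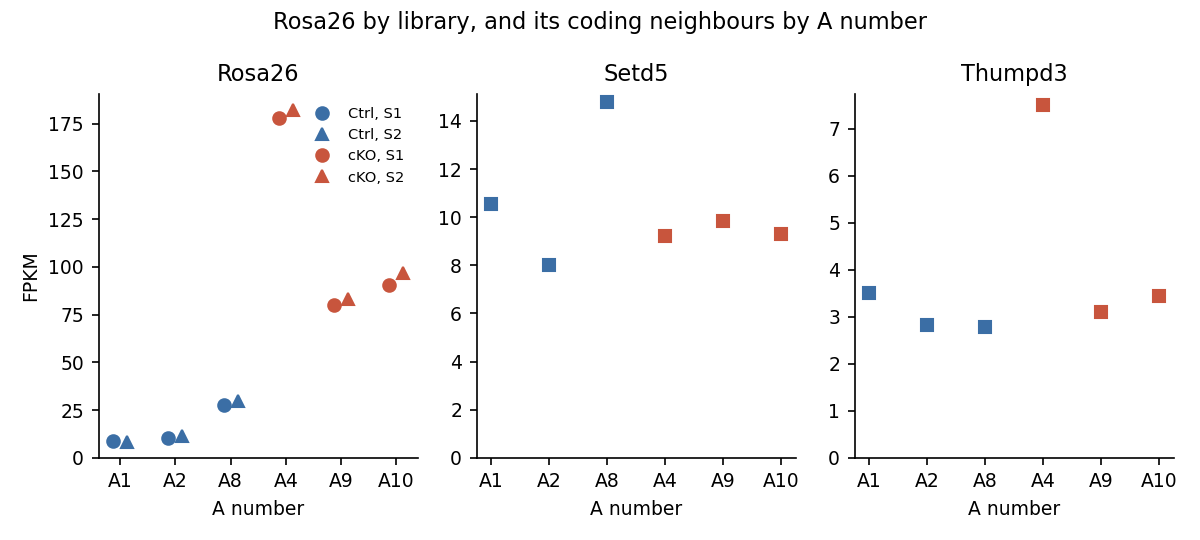
FPKM of Rosa26 in each library (circles S1, triangles S2) and of its coding neighbours Setd5 and Thumpd3 as the mean of S1 and S2, by A number, Ctrl in blue and cKO in red; all axes start at 0. Rosa26 lies between 8.28 and 29.8 in Ctrl and between 79.8 and 182 in cKO, while the groups of Setd5 and Thumpd3 overlap.

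The groups of both nuclear RNAs overlapped. Malat1 measured 4020, 3447 and 5229 FPKM in A1, A2 and A8 and 4896, 4876 and 4862 in A4, A9 and A10. The cKO units lay within the Ctrl range, at 4878 ± 16.9 FPKM against 4232 ± 910 (SD, n = 3; limma adjusted p = 0.869). Neat1, the scaffold of paraspeckles, measured 20.9, 17.2 and 33.0 FPKM in Ctrl and 25.8, 25.1 and 25.4 in cKO, again with the cKO units inside the Ctrl range. In both RNAs A8 was the highest and A2 the lowest of the 6 units. Of 6 tested RNAs listed for nuclear bodies, Malat1 and Neat1 were members (Tug1, at 17.1 FPKM, has the biotype protein coding in the table), 4 were higher and 2 lower in cKO, and none had an unadjusted p under 0.05. Among 13 paraspeckle proteins 4 were higher and 9 lower, with Smarca4 at an unadjusted p of 0.0398 and a difference of -0.32, and among 14 speckle proteins 10 were higher and 4 lower; none passed the adjusted threshold.

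The 6 microRNA-holding members were all higher in cKO on average, and none passed the test. With the mean oligodendrocyte marker level as a covariate 5 of the 6 were lower, from -0.08 (Gm6145) to -0.40 (Gm3764), and Snhg10 was higher by 0.95 (log2). Over 6 units this covariate is close to the genotype itself. Gm3764 measured 64.7, 31.8 and 103 FPKM in A1, A2 and A8 and 91.5, 81.3 and 89.8 in cKO, so the cKO units again lay within the Ctrl range. C130071C03Rik measured 13.2, 9.44 and 12.6 FPKM in Ctrl and 14.6, 15.2 and 11.98 in cKO. The groups of both miR-9 hosts overlapped, and Gm3764 was the more abundant of the 2 in each unit, per length. Mir99ahg measured 7.88, 7.68 and 11.97 FPKM in Ctrl against 11.96, 12.7 and 11.1 in cKO, with a difference of 0.37 (log2) and an adjusted p of 0.736 in limma. Mir124-2hg, host of Mir124a-2, measured 10.9, 7.82 and 13.8 FPKM in Ctrl against 14.6, 15.5 and 12.6 in cKO. Gm6145, named here because it holds Mir6390, measured 37.5, 31.4 and 56.1 FPKM in Ctrl against 55.4, 52.7 and 56.6 in cKO. In Gm3764, Mir99ahg, Mir124-2hg and Gm6145 alike, A8 was the highest Ctrl unit and lay near or above the cKO units. Of the 9 tested genes on the list of known microRNA hosts, 3 were members; 8 of the 9 were higher in cKO, the exception being Meg3 at -0.81, and none had an unadjusted p under 0.05.

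Of the 2 members that carry small nucleolar or Cajal body RNAs, Gas5 overlapped between genotypes and Snhg10 did not. Gas5, whose span held 10 snoRNA genes in the table, measured 17.1, 14.4 and 11.6 FPKM in A1, A2 and A8 and 15.4, 14.2 and 14.7 in cKO, with overlapping groups and a difference of 0.05 (log2). Snhg10, which held Scarna13 (a guide RNA of Cajal bodies) and Mir3069, measured 17.1, 12.5 and 18.2 FPKM in Ctrl and 20.2, 21.3 and 35.1 in cKO. Scarna13 and Mir3069 lie in exons of Snhg10 and averaged 124 and 143 FPKM, against 20.7 FPKM for Snhg10. Part of the Snhg10 value can therefore be reads of these small RNAs, and this was not tested. Every cKO unit of Snhg10 lay above every Ctrl unit, with A10 well above the rest, and the difference of 0.62 ± 0.24 (SE, log2) had an unadjusted p of 0.0387 and an adjusted p of 0.621 in limma. Glrx5, which starts 380 bases from Snhg10 on the other strand, was at 1.12 ± 0.745 FPKM in Ctrl and 1.40 ± 0.376 in cKO. Of 20 tested rows on the list of snoRNA hosts, 11 were higher and 9 lower, with an unadjusted p under 0.05 for Snhg10 and, in the other direction, for Snhg11 (-1.61). Of 8 proteins of snoRNA particles, 7 were lower in cKO and 1 higher, with Gar1 at -0.82 and an unadjusted p of 0.0219.

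RefSeq promoters (250 bases before to 50 after the start, GRCm38.p6) were matched for 51 member genes, with 59 promoters; none was matched for Gt(ROSA)26Sor. Among the members that carry microRNAs or small nucleolar RNAs, Snhg10 and the miR-9 host Gm3764 had the largest fitted differences, and their promoters are shown for that reason, with motif matches on either strand in capitals. The GC box was searched as GGGCGG. The TATA box was searched as TATAAA. The CCAAT box was searched by the letters of its name, and the cyclic AMP response element as TGACGTCA; no match of one motif overlapped another in the sequences shown. The Gm3764 promoter, chr3:88214232-88214531, plus strand, held 4 CCAAT matches and 1 cyclic AMP response element:
Gm3764: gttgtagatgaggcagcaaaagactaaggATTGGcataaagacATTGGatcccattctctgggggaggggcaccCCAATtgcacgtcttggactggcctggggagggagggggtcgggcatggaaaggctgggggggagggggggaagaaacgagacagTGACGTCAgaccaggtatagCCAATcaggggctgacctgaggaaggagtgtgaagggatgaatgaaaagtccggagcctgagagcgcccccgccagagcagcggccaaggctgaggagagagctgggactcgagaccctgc
The Snhg10 promoter, chr12:105032230-105032529, minus strand, held 1 CCAAT match and 1 GC box, with 64.7% G and C:
Snhg10: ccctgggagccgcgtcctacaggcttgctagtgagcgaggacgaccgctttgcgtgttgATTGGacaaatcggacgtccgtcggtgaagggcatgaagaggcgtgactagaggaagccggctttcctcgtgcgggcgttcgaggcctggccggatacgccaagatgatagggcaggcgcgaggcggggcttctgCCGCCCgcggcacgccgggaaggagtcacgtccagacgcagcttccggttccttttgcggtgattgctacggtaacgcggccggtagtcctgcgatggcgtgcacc
Over the 59 member promoters the share with a GC box was 33.9%, against 35.7% of all 32851 RefSeq promoters, with a CCAAT box 33.9% against 37.4%, with a TATA box 6.78% against 13.6%, and with the cyclic AMP response element 5.08% against 1.79%. The last share is 3 of 59 promoters. These are matches of letters in a fixed window.

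Of the cytoplasmic regulators, Norad and Oip5os1 each overlapped between genotypes. Norad, which sequesters Pumilio proteins, measured 28.7, 41.2 and 30.9 FPKM in A1, A2 and A8 and 27.7, 26.8 and 28.7 in cKO, and Oip5os1 (also called Cyrano), which directs decay of a microRNA, measured 17.5, 13.5 and 16.9 against 14.4, 14.2 and 14.6. Both RNAs overlapped between the groups, with differences of -0.25 and -0.13 (log2) and limma adjusted p of 0.806 and 0.904. The cKO units lay closer together than the Ctrl units in both. The mean log2 level of the 4 genes on that list did not overlap, at 4.29 to 4.34 in Ctrl units and 4.20 to 4.26 in cKO units (exact permutation test, p = 0.1, the smallest possible). No member came from the list of imprinted RNAs, whose 4 tested genes were 2 higher and 2 lower. Of 6 tested RNAs that lie beside neural transcription factor genes, 4 were higher and 2 lower in cKO, and C130071C03Rik was the only member. The mean log2 level of these 6 did not overlap either. It was 3.23 to 3.35 in Ctrl units and lower, 3.15 to 3.19, in cKO units (exact permutation test, p = 0.1). The 2 RNAs that were lower were Sox2ot and Gm11627. Sox2ot was at 10.5 FPKM in Ctrl and 6.42 in cKO with an unadjusted p of 0.00766 (adjusted 0.416, limma). Gm11627 was at 8.78 FPKM in Ctrl and 3.96 in cKO with an unadjusted p of 0.0139 (adjusted 0.476, limma).

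Most members share bases with a protein-coding gene. Exons of 98 members shared bases with coding exons mainly on the opposite strand and those of 10 mainly on the same strand, 108 (70.6%) in all. A further 18 lay inside or partly over the span of a coding gene without shared exon bases, and 27 overlapped none. In 55 members at least 50% of the bases were shared with 1 coding gene, and 15 members (9.80%) started head to head within 1000 bases of a coding gene. Because the libraries carry no strand, part of the value of an overlapping member can be reads of the coding gene and the reverse. Across the 108 members the difference between genotypes of the member and of the coding gene it overlaps had a Pearson r of 0.774, with the same sign in 81 of 108. For the 98 opposite-strand members alone r was 0.767. This r is across genes that share reads and libraries and is given as a description. The levels were less alike, with r = 0.449 between the log2 levels of member and partner, and 39 of the 108 members were above their partner per length.

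**Figure D3:**
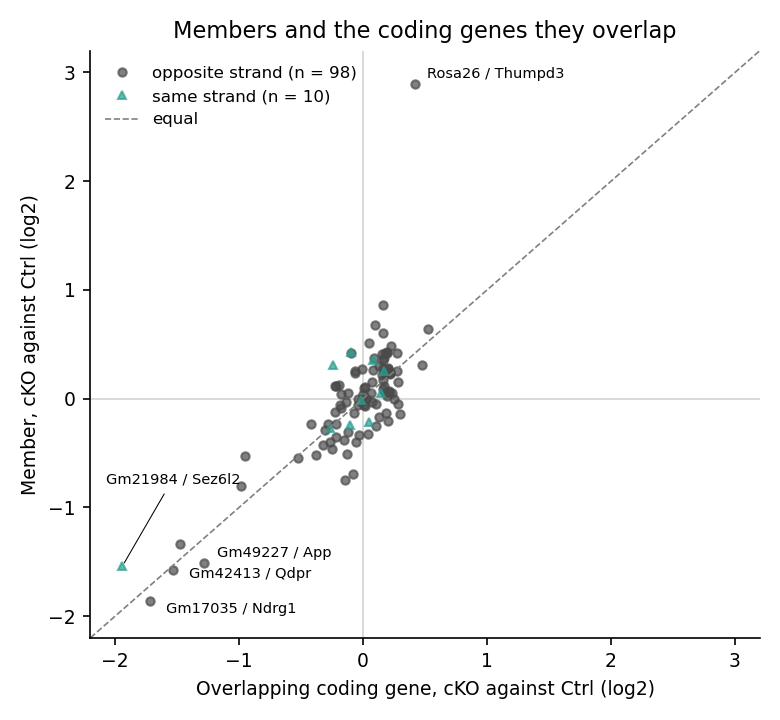
Difference between cKO and Ctrl (log2(FPKM + 1) scale) of each member against that of the coding gene it shares exon bases with, circles for opposite and triangles for same strand; the dashed line marks equal differences. The members with the most negative differences lie near the line, and Rosa26 lies 2.90 up at a Thumpd3 difference of 0.42.

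Of the 5 members with the largest lower values in cKO, 4 share exon bases with a coding gene. Gm17035 (chromosome 15, start 66801456, end 66802956), all of whose 419 bases lie in exons of Ndrg1, a stress-responsive gene abundant in myelinating glia, measured 61.5, 57.4 and 25.04 FPKM in A1, A2 and A8 and 6.52, 15.7 and 14.9 in A4, A9 and A10. Its difference was -1.86 ± 0.43 (SE, log2), that of Ndrg1 -1.72. Gm42413 (chromosome 5, start 45591731, end 45607480), which shares 98.2% of its bases with Qdpr, a dihydropteridine reductase gene, measured 123, 116 and 74.6 FPKM in Ctrl and 15.97, 46.9 and 50.7 in cKO. Its difference was -1.57 ± 0.44, that of Qdpr -1.54.

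Gm21984 (chromosome 7, start 126541316, end 126552045), which shares 50.2% of its bases with Sez6l2 on the same strand, measured 42.7, 37.9 and 22.5 FPKM in Ctrl and 8.65, 7.76 and 18.1 in cKO. Its difference was -1.54 ± 0.36, that of Sez6l2 -1.94. Gm49227 (chromosome 16, start 84876999, end 84880280), with 11.3% of its bases shared with App, the amyloid precursor gene, measured 26.9, 22.8 and 15.5 FPKM in Ctrl and 6.25, 5.33 and 9.36 in cKO. Its difference was -1.51 ± 0.26, that of App -1.28. In these 4 members the units of the groups did not overlap, and A8 was the lowest Ctrl unit in each.

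Gm56971 (chromosome 6, start 126613426, end 126615640) had the largest lower value and overlaps no coding gene. It measured 20.4, 22.0 and 8.69 FPKM in A1, A2 and A8 and 2.33, 3.62 and 5.22 in cKO, with a difference of -1.88 ± 0.38 (SE, log2). The potassium channel gene Kcna1, which lies 1720 bases away on the same strand and is named after its values were seen, was at 14.1 ± 7.94 FPKM in Ctrl and 3.10 ± 1.29 in cKO, a difference of -1.73. None of the 5 members passed the adjusted threshold in limma, with adjusted p from 0.319 to 0.431. In a library-level model with a random effect for the A number and the replicate block, which treats S1 and S2 as separate observations, Gm56971, Gm21984, Gm17035 and Gm49227 had adjusted p from 0.0386 to 0.0481. These 5 members follow the order of the oligodendrocyte markers in part: the list was lower in every cKO unit than in every Ctrl unit, and A8 was the lowest Ctrl unit in both. With the mean marker level of that list as a covariate the 5 differences lay between -0.08 (Gm42413) and -0.61 (Gm49227), and over 6 units this covariate is close to the genotype itself.

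The members with the largest higher values after Rosa26 differed by less than 2-fold. A930028N01Rik measured 12.2, 12.6 and 9.55 FPKM in Ctrl and 21.9, 22.7 and 20.1 in cKO, a difference of 0.87 ± 0.15 (SE, log2). Gm11714, within the span of Pitpnc1 on the opposite strand, measured 12.4, 7.90 and 10.8 FPKM in Ctrl and 14.8, 20.3 and 23.9 in cKO, a difference of 0.86 beside 0.08 for Pitpnc1. Both had all cKO units above all Ctrl units.

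Gm27232, whose bases all lie in exons of Rfx7 on the opposite strand, measured 7.17, 10.4 and 10.03 FPKM in Ctrl and 15.5, 15.5 and 14.2 in cKO, a difference of 0.68 beside 0.10 for Rfx7. 4930480K15Rik measured 12.5, 9.29 and 14.2 FPKM in Ctrl and 20.7, 19.6 and 17.4 in cKO, a difference of 0.65. Gm10308, the tenth most abundant member, measured 57.2, 49.4 and 62.1 FPKM in Ctrl and 68.7, 63.1 and 69.1 in cKO. In these 3 members too the units did not overlap, and the adjusted p in limma was 0.366, 0.423 and 0.710.

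**Figure D4:**
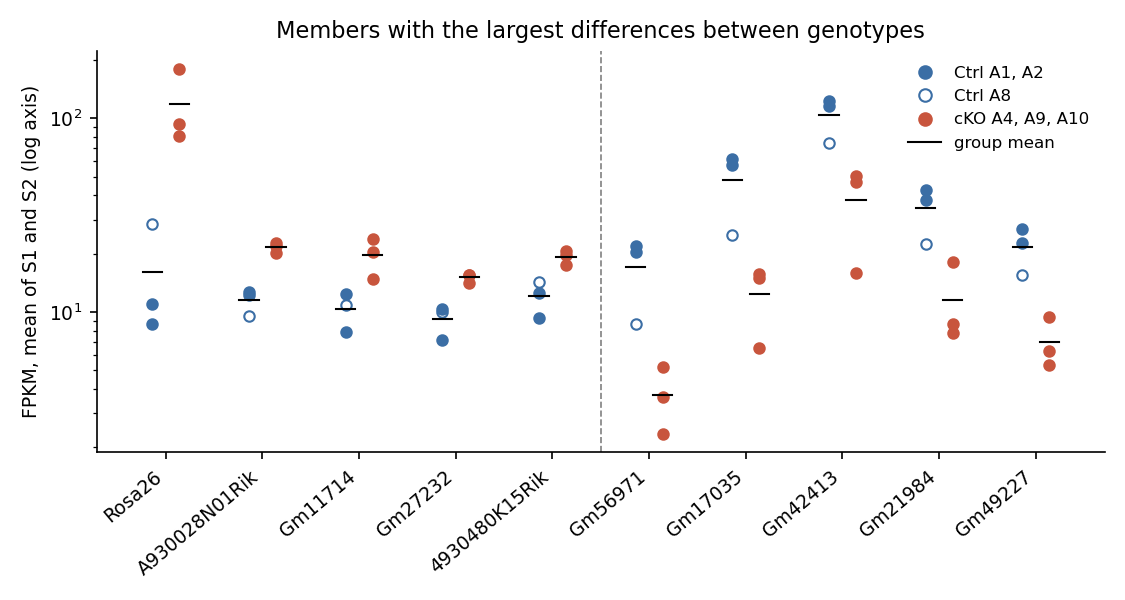
FPKM (log axis, mean of S1 and S2) of the 5 members with the largest higher and the 5 with the largest lower values in cKO among those whose units do not overlap; points are A numbers, Ctrl in blue with A8 open, cKO in red, and bars are group means. A8 is the Ctrl unit nearest to cKO for Rosa26, 4930480K15Rik and all 5 members on the right.

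Over the whole table no gene passed the adjusted threshold between genotypes in limma: 0 of 17586 (0%), and 0 of 153 members. The smallest adjusted p was 0.136 over all genes and 0.319 among members. An unadjusted p under 0.05 was found for 1352 genes (7.69%) and for 22 members (14.4%), 12 higher and 10 lower, beside 10.1% of the coding genes with a mean of at least 10 FPKM. Units that did not overlap with cKO higher were found in 1006 genes (5.72%) and 19 members (12.4%), and with cKO lower in 1278 genes (7.27%) and 14 members (9.15%). Among all genes with a mean of at least 10 FPKM these shares were 6.13% higher and 9.96% lower, and among the coding genes at that level 5.89% and 10.9%. The share of members with cKO lower was thus no larger than that of genes at a similar level. The members were chosen with results of this contrast known, so these shares are a description. The median difference was 0.05 (log2) for the members, with 86 of 153 higher, 0.04 for the other lncRNA rows tested and -0.01 for all genes. By group means, 1 member was at least 2-fold higher in cKO, Rosa26, and 6 were at least 2-fold lower. Of these 6, 5 share exon bases with a coding gene. The lower member outside the 5 described was Gm57408, at 19.8 ± 5.48 FPKM in Ctrl and 7.13 ± 1.63 in cKO, with 15.0% of its bases shared with Septin4. Counts at 2-fold were not made over all genes. At an unadjusted p under 0.05 in limma, 523 of all genes tested were higher and 829 lower in cKO.

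The S2 and S1 libraries offered a contrast that the choice of members did not use. S2 was higher for 197 of 17586 genes (1.12%) and for 24 members (15.7%), and lower for 46 genes (0.262%) and 2 members (1.31%), in limma blocked on the A number at an adjusted p under 0.05. In coding genes with a mean of at least 10 FPKM the share called in either direction was 2.16%, in lncRNA rows that are not members 0.665%, and in all genes with a mean of at least 10 FPKM 4.67%. Of the 433 other rows at that level that are neither members nor coding genes, among them microRNA, snoRNA and mitochondrial RNA genes and pseudogenes, 86 (19.9%) were called, so a share of this size was not particular to the members. The median of S2 minus S1 was 0.10 (log2) over the members and 0.02 over all genes. S2 was the higher library in 6 of 6 A numbers for 56 members, a count that was not made over all genes. By the mean difference, S2 was higher in 82.4% of the members, 71.2% of the other lncRNA rows tested and 60.6% of all genes tested. Leaving out 1 A number lowered the counts by over 1.5 times for all genes without A1 (153), A9 (161) or A10 (153), and for members without A4 (16), A9 (17) or A10 (16).

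Gm13872, antisense to Slc1a2, had the smallest adjusted p among the members higher in S2: its S1 values were 180, 180, 209, 225, 256 and 208 FPKM and its S2 values 203, 206, 239, 252, 293 and 228 in A1, A2, A8, A4, A9 and A10, a difference of 0.18 ± 0.01 (SE, log2; limma adjusted p = 0.000173, higher in 6 of 6). R74862, which overlaps Cd81, differed by 0.37 ± 0.03 (adjusted p = 0.000713) and Gm10382 by 0.52 ± 0.04 (adjusted p = 0.00109). The overlapped genes Slc1a2 and Cd81 differed by -0.02 each.

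Gm15564, on chromosome 16, whose span overlaps those of Parp9 and Kpna1 in part, went the other way. Its S1 values were 69.6, 45.2, 45.4, 57.3, 55.6 and 51.9 FPKM and its S2 values 23.2, 19.6, 22.4, 23.8, 20.6 and 21.7 in the same order, a difference of -1.26 ± 0.07 (adjusted p = 0.000112, lower in 6 of 6). The S1 and S2 ranges did not overlap, and the genotypes overlapped (37.6 ± 7.69 FPKM in Ctrl, 38.5 ± 1.94 in cKO; SD, n = 3). Malat1 differed by -0.02 (log2), lower for S2 in 6 of 6 pairs (limma adjusted p = 0.0173). Of the members that share exon bases with a coding gene 23 of 108 (21.3%) were called, and of the other members 3 of 45 (6.67%): Gm15564, Malat1 and Norad, which was higher in S2 by 0.17. The median S2 minus S1 was 0.14 in the former and 0.03 in the latter. The former were also shorter, with a median length of 677 bases against 2199, and the part of length was not tested. S2 libraries were also the deeper ones of each A number, and the part of depth was not tested. No member passed the test for a genotype difference in S2 minus S1 (limma on the differences, smallest adjusted p = 0.952, 4 of 153 members, 2.61%, with an unadjusted p under 0.05, beside 5.01% of all genes).

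**Figure D5:**
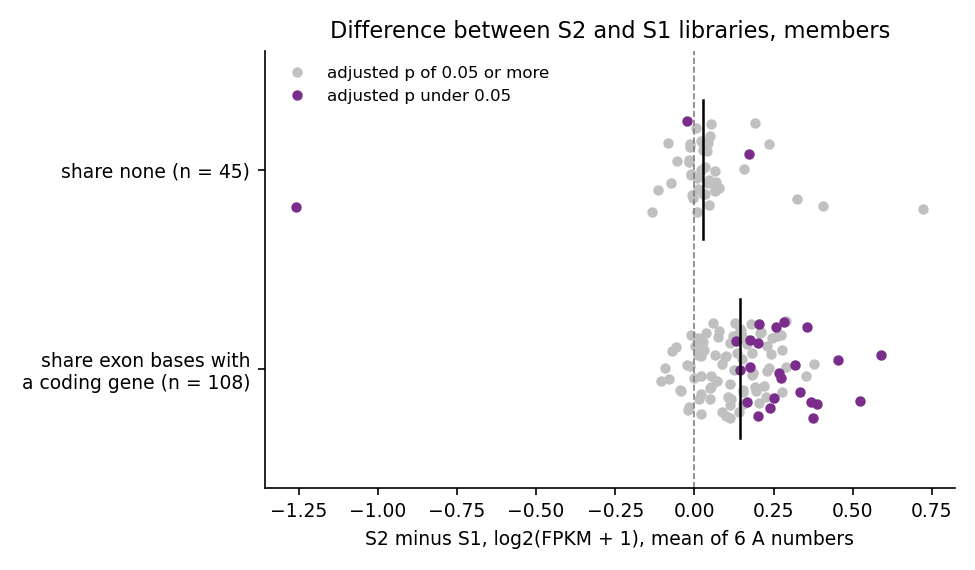
Mean difference between S2 and S1 on the log2(FPKM + 1) scale for each member, in the 108 that share exon bases with a coding gene and the 45 that share none; purple points had an adjusted p under 0.05, and the black bars are medians (0.14 and 0.03). Points are spread vertically for visibility. Gm15564 lies apart at -1.26.

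The Ctrl units differed among themselves more than the cKO units did. Over the members the Pearson r of log2 levels was 0.976 to 0.982 between S1 and S2 of one A number, 0.926 to 0.934 between cKO units, 0.783 to 0.908 between Ctrl units and 0.749 to 0.884 between genotypes, each over the 153 members as a description. The median SD of the log2 level was 0.33 in Ctrl and 0.19 in cKO, and the Ctrl SD was the larger in 119 of 153 members (77.8%), beside 66.9% of all genes. A8 was nearer to the cKO mean than to the mean of A1 and A2 in 101 of 153 members. It was the highest of the Ctrl units in 81 and the lowest in 45. These counts on A8 were not made over all genes, so they are not shown to be particular to the members. Without A8, the median difference of the members was 0.15 instead of 0.05, and 52 members instead of 22 had an unadjusted p under 0.05, beside 2443 genes (13.9%) instead of 1352, none of the members past the adjusted threshold. The marker lists differed between these units too: the immediate-early genes such as Fos and Egr1 averaged 5.71, 5.85 and 4.003 in A1, A2 and A8 and 4.71, 3.62 and 4.58 in A4, A9 and A10 (log2 scale; exact permutation test between genotypes, p = 0.3), and their part in the levels of the members was not tested. With the mean oligodendrocyte marker level as a covariate, the median difference of the members was -0.12 and 58 of 153 were higher in cKO, against 86 without it. The direction of the median over members thus did not hold under that covariate, which over 6 units is close to the genotype itself.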

How the data were processed

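The authors deposited FPKM values per gene for 12 libraries. Per the labels' protocols, RNA of sorted astrocytes was turned into cDNA and libraries with the SMART-Seq V4 kit and sequenced as paired reads of 125 bases. The submitters' processing notes name FastQC, STAR, featureCounts, DESeq2, mm10 and GRCm38 without roles or versions. Start and end equalled those of GENCODE M21 on GRCm38 for 2.77% of 51948 matched gene identifiers, so the build of the table was not settled and its coordinates are printed as deposited. Reads were recovered from the steps of low values, and no count test was run.

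Levels were tested as log2(FPKM + 1), which understates changes of low genes, on the mean of S1 and S2 per A number, for 17586 rows with a mean FPKM of at least 1, with limma 3.58.1 in R 4.3.3 (variance trend, two-sided, Benjamini-Hochberg threshold 0.05). S2 was compared with S1 in 12 libraries, blocked on the A number. Marker lists were compared with an exact permutation test over 20 arrangements. Fits were tested on simulated data. Overlaps used exon intervals of the table. The members, lists and tests were chosen with earlier results of these data known. Named are Rosa26, the 10 most abundant members, the 5 largest differences each way among members whose units do not overlap, the 3 smallest adjusted p each way between S2 and S1, the members at the limit, and those of role lists. The alternatives were other pseudocounts, filters, scalings, variance models, member limits, S1 or S2 alone, each A number left out, library-level models and a marker covariate; leaving out members that share coding exons was chosen after seeing the data. Some results on overlapping genes are not reported here.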

Additional observations from a re-analysis of the deposited data

Results flagged for a closer look

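In the difference of S2 minus S1 on the log2(FPKM + 1) scale, 4 of the 29 named members examined had 1 A number far from the other 5; chance gives such a gap in about 1 of 20. These were Gm37401 with 0.352 in A8, Snhg10 with 0.0436 in A8, C130071C03Rik with -0.0808 in A4 and Gm56971 with 0.314 in A10. The comparisons leave out 8318 lncRNA rows with a mean FPKM under 1, of at least 300 bases and outside chromosomes X and Y. Of these, 30 had over 3 reads in all cKO libraries and at most 3 in all Ctrl libraries, and 7 had the reverse. The limit of 3 reads was not scaled to the depth of a library.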

How the results depend on the processing

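Between genotypes, 0 genes and 0 members were called under every alternative run on the 6 units, except that 1 gene, no member, was called without A1 (range of the fits without 1 A number: 0 to 1 genes). Library-level models with a random effect for the A number called 112 genes and 4 members (Rosa26, Gm56971, Gm21984 and Gm17035), and with the replicate block added 80 genes and 6 members, the further ones being Gm49227 and Gm57408; these models treat S1 and S2 as separate observations. The median difference of the members, 0.05, was 0.128 after quantile normalisation, 0.156 for members of at least 1000 bases and 0.149 without members that share coding exons, and ran from 0.0228 (without A2) to 0.151 (without A8). Of 312 comparisons of named members with an alternative, which leave out the marker covariate, 309 kept the direction, and the other 3 had small differences: Gm37401 was -0.0578 without A8 (range of the fits without 1 A number -0.0578 to 0.206), Gas5 -0.0857 without A8 (-0.0857 to 0.176) and Neat1 -0.0452 without A2 (-0.0452 to 0.405). The cause of these changes was not tested. With the oligodendrocyte marker covariate 10 of the 26 named members turned direction, among them Gm3764 (-0.40), Neat1 (-0.47), 1700010K23Rik (-0.45), Gm57354 (-0.38) and Malat1 (-0.17). That covariate is close to the genotype itself over the 6 units.

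Between S2 and S1, 243 genes and 26 members were called. Without the A number block the counts were 22 and 1, quantile normalisation gave 173 genes and 17 members, and a minimum of 10 FPKM, with 3965 genes tested, gave 282 and 43. Without 1 A number they ran from 153 to 182 genes and from 16 to 18 members. Fits without an A number hold fewer libraries. The list of RNAs that overlap ribosomal RNA held no member, so leaving it out changed nothing. Depth limits small differences of members near 10 FPKM, and with 3 units per genotype the exact test cannot go below 0.1.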
